A study of Gallus gallus with 2 samples.

Results

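Mesoderm-2 is the name the authors gave to 799 of the 7750 cells, or 10.3%, profiled from gastrula-stage chicken embryos. Members were taken by that class name alone, and all 799 carried an ATAC rank. The cells came from whole embryos at Hamburger-Hamilton stage HH5, which were dissociated with enzymes as 1 preparation and read with the 10x Multiome assay, giving 1 RNA and 1 ATAC library of the same cells. Strain, sex, number of embryos and any treatment are not stated in the labels, and there is no contrasting group. ATAC measures how open chromatin is to a transposase. The table gave each cell a pair of coordinates in a weighted nearest neighbour embedding. In such an embedding, cells with similar RNA and ATAC profiles lie close together. A rank from 1 to 6681, named for its ATAC origin, was given to all but 1069 of the 7750 cells. What was ranked, whether the rank follows an embryonic axis, and in which direction, are not stated in the labels or the table. Ranks are therefore described as low or high only. No gene values were analysed here, so the name mesoderm-2 could not be set against marker genes, and the read depth behind a rank is unknown.

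During gastrulation, epiblast cells enter the primitive streak, lose their epithelial form and leave it as mesoderm or endoderm. In the chick, mesoderm cells that leave the anterior streak tend to form axial and paraxial tissue, and those that leave it further back tend to form lateral and extraembryonic tissue. At HH5 this movement is in progress, so streak cells and their mesodermal descendants are present together. Chromatin accessibility at regulatory elements can carry a record of a cell's lineage and position, which is the subject named in the title of the series.

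All values describe 1 preparation. Sets of cells from it do not replicate one another, and they were therefore compared without tests or p-values, with intervals that cover counting error only. The classes are named as clusters, and the embedding and the rank both draw on ATAC profiles of the same cells, so relations among class, position and rank are not between independent measurements.

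Mesoderm-2 cells spread over most of the upper part of the rank. The lowest rank was 1445, the quartiles were 3915 and 5852.5, the median was 4854 (95% interval 4709 to 5029) and the highest rank was 6681, which was also the highest in the table. When all ranked cells were divided in rank order into 10 bins of 668 or 669 cells, mesoderm-2 cells were spread almost evenly over bins 6 to 10, with 146, 138, 132, 136 and 170 cells. Bins 3, 4 and 5 held 6, 14 and 57 cells. None of the 799 was in bins 1 and 2, which allows a share of up to 0.375%. The SD of the rank was 1159 in mesoderm-2, against 1163 in mesoderm-3, 1095 in the primitive streak, 898 in mesoderm-5, 812 in mesoderm-1 and 788 in mesoderm-4. The mesoderm-3 value includes 22 cells with second coordinates below 0 in the embedding. It was 942 for the other 114, which lay among mesoderm. Of the bordering classes, mesoderm-3 and mesoderm-5 reached lower ranks than mesoderm-2, with their lowest cells at 735 and 434. Among those with a mesoderm-2 cell in their 15 nearest cells, the lowest were at 1099 in mesoderm-3 and 905 in mesoderm-5.

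In the embedding, mesoderm-2 extended from the upper end of the primitive streak towards a narrow tip beside mesoderm-5. Mesoderm-4 lay on its side of low first coordinate, mesoderm-1 above it and mesoderm-6 below. The first coordinate of mesoderm-2 cells ran from -3.43 to 1.28 (median -1.27) and the second from 0.38 upwards (median 2.98), when 2 cells far below the others were set aside. Those 2 cells had second coordinates of -6.58 and -6.03 and lay among ectoderm, with 14 and 15 of their 15 nearest cells in neural ectoderm-1. Their ranks were 3394 and 3033, whereas the median ranks of their nearest cells were 840 and 367. Both cells therefore had ranks within the wide range of their own class (1445 to 6681) and far above the cells around them. Of the other mesoderm-2 cells, 55 had at least 1 cell of an ectoderm class among their 15 nearest cells.

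**Figure D1:**
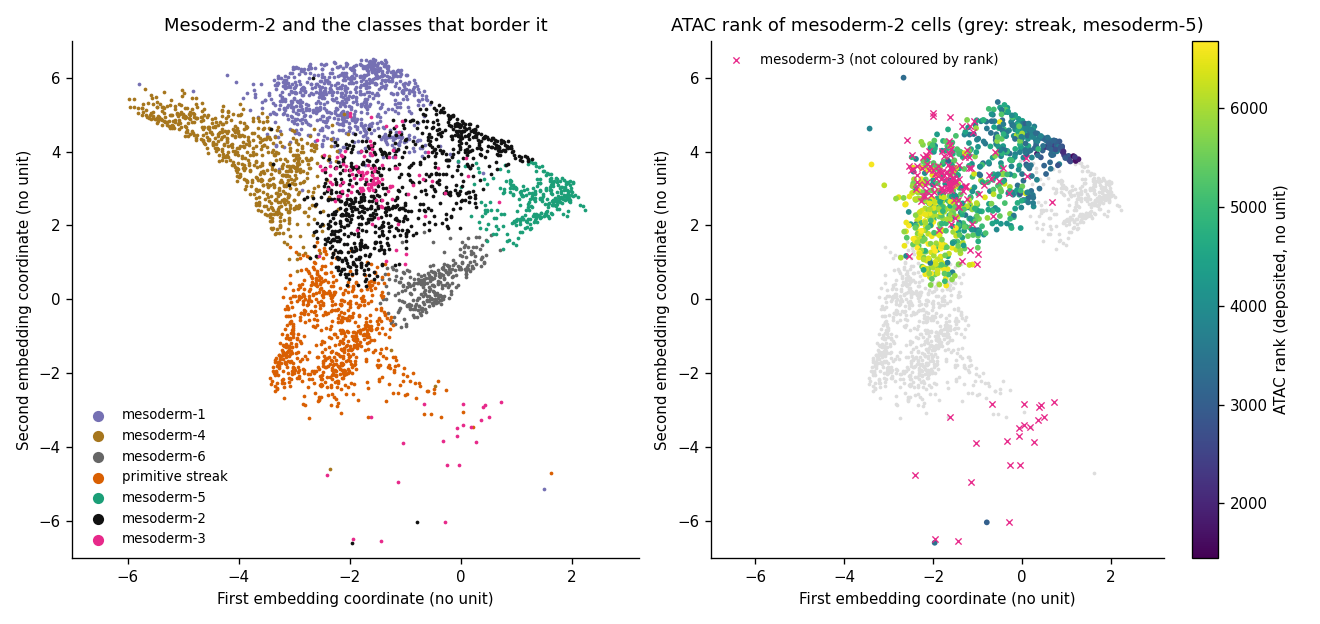
Positions of mesoderm-2 cells in the authors' embedding, with the first and second coordinates (no unit) on the axes and 1 point per cell. Left, mesoderm-2 (black) with the streak and the other mesoderm classes; right, mesoderm-2 cells coloured by ATAC rank, with streak and mesoderm-5 cells in grey and mesoderm-3 cells as crosses. High ranks lie at the streak end, low ranks at the tip beside mesoderm-5, and mesoderm-3 crosses lie mostly in between; 4 cells of the other classes fall outside the plotted range.

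Ranks were lower at higher first coordinates throughout the class. Mesoderm-2 cells were put in order of the first coordinate and divided into 8 groups of 99 or 100 cells, and the group medians were 6107.5, 5960, 5511.5, 5247, 4570.5, 4358, 4016 and 3177. Each group had a lower median than the one before it. The largest step between neighbouring groups, 839 ranks, was the last, into the tip at first coordinates of 0.20 to 1.28. The quartiles of that tip group were 2885.5 and 3540.5, so its upper quartile was below the lower quartile of the group before it, 3585.25. In the first group the quartiles were 5494.5 and 6488.75. Spearman's rho between rank and first coordinate was -0.71 across 799 cells. The 3 cells with the lowest ranks in the class, 1445, 1575 and 1679, had first coordinates of 1.21, 1.16 and 1.21.

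The second coordinate showed a weaker and less regular relation. Its 8 group medians were 6003, 5362.5, 5526, 5291.5, 4778, 4070, 3744.5 and 4035. The order was broken in groups 3 and 8, and the last 2 groups had overlapping quartile ranges (3173 to 4541.25 and 3609 to 4611.5). Spearman's rho was -0.56 across 799 cells, but the coordinates were themselves correlated within mesoderm-2 (rho = 0.60). With the other coordinate held constant, the partial rho was -0.57 for the first coordinate and -0.23 for the second. In a joint linear fit, 1 SD along the first coordinate went with a rank lower by 767 (fitted change -767), and 1 SD along the second with a change of -142. The first coordinate alone accounted for 53.3% of the rank variance and both together for 54.3%. Along the second coordinate alone this was 24.1%.

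The relation to the second coordinate did not have the same sign everywhere in mesoderm-2. The cells were divided into 4 groups in order of the first coordinate. The Spearman correlation of rank with the second coordinate was -0.26, -0.36 and -0.32 in groups 1, 2 and 3, of 200 cells each, and 0.25 in group 4, of 199 cells with first coordinates of -0.19 to 1.28. In that last group, which includes the tip, cells at higher second coordinates tended to have higher ranks. The Spearman correlation of rank with the first coordinate had the same sign in all 4 groups made in order of the second coordinate, at -0.45, -0.59, -0.72 and -0.55.

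**Figure D2:**
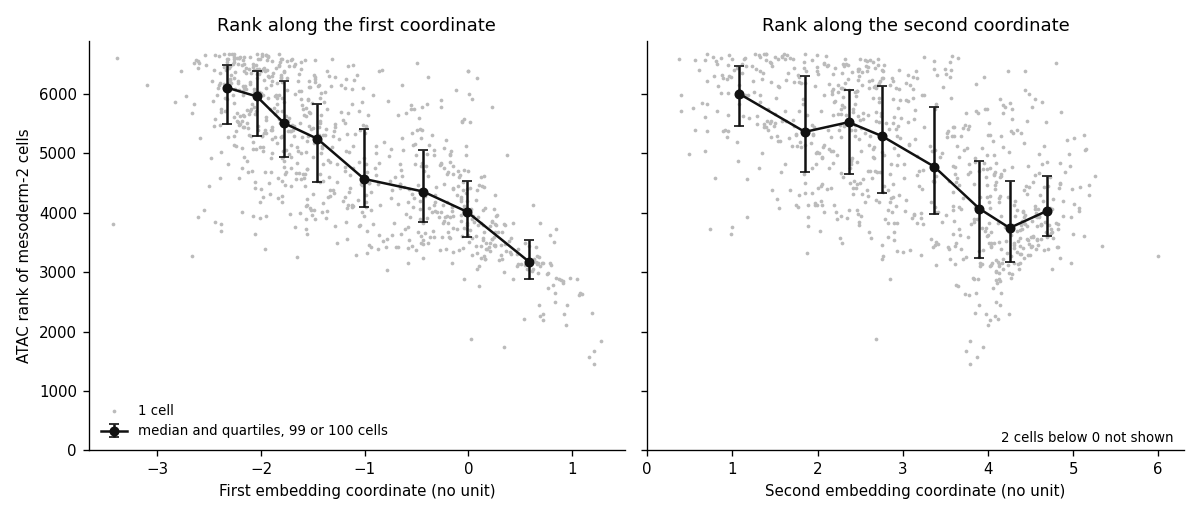
ATAC rank (vertical axis, no unit) of mesoderm-2 cells against the first (left) and second (right) embedding coordinate. Grey points are single cells, and black points with bars are medians and quartiles of 8 groups of 99 or 100 cells; the group medians descend from 6107.5 to 3177 on the left without a break, and on the right from 6003 to 3744.5 and then 4035.

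A path position was computed to follow the class from the streak to mesoderm-5. It is the distance of a cell to the streak divided by the sum of its distances to the streak and to mesoderm-5, each taken as the mean distance in the embedding to the 5 nearest cells of that class. It is 0 at the streak and 1 at mesoderm-5. The Spearman correlation of rank with path position was -0.71 across 799 cells. Path position followed the first coordinate closely (rho = 0.89). With the first coordinate held constant, the partial rho of rank with path position was -0.24. With path position held constant, it was -0.25 for the first coordinate and -0.01 for the second. The path and the first coordinate are thus largely 2 views of the same gradient. The decline was not uniform. In 10 groups of 79 or 80 cells in order of path position, the medians were 6042.5, 6080.5 and 5929 in groups 1 to 3, where the quartile ranges largely overlapped. They were 5380.5, 5293.5, 4759, 4233.5 and 4062.5 in groups 4 to 8, and 3721.5 and 3347 in groups 9 and 10. The 2 mesoderm-2 cells among ectoderm were kept, and had the lowest ranks of groups 3 and 2 (3394 and 3033). Within the first 3 groups (240 cells) rho with path position was -0.19, within the middle 4 (320 cells) -0.40 and within the last 3 (239 cells) -0.52. Along the path, the high end was thus a plateau. Most of the path's graded part lay in the middle of the class and at the mesoderm-5 end. Path groups 1 to 3 differed little in median first coordinate (-2.06, -1.98 and -1.99). In order of that coordinate, medians fell from the start (6107.5, 5960 and 5511.5 in groups 1 to 3 of 8). Each of path groups 1 to 3 also had 45 to 52.5% of its cells in the highest rank bin, which ends at 6681. How far these features shaped the plateau was not tested. A cell of path group 1 ranked above a cell of path group 10 in 97.8% of pairs, where 50% would mean no difference in level.

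The cells at the ends of the rank were placed accordingly. Of the 170 mesoderm-2 cells in the highest of the 10 rank bins, 119 (70.0%) were in the first 3 path groups and 5 were in the last 3. That bin took up 52.5, 51.2 and 45.0% of path groups 1, 2 and 3, and 1.27% of group 10. Cells below the middle rank of 3341 numbered 77, or 9.64% of the class (95% interval 7.68 to 11.9%). Of these, 67 (87.0%) were in path groups 9 and 10.

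At its ends, mesoderm-2 met the bordering classes at similar median ranks, though both quartiles were higher on the mesoderm-2 side. A border cell here is one with at least 1 cell of the named other class among its 15 nearest cells. The 84 mesoderm-2 cells at the streak border had a median of 6020, with quartiles of 5569.5 and 6493.25. The 63 streak cells at the same border had a median of 5832, with quartiles of 5216 and 6347.5. The mesoderm-2 cell was the higher in 56.3% of pairs across that border. The 73 mesoderm-2 cells at the mesoderm-5 border had a median of 3590, with quartiles of 3215 and 4306. The 34 mesoderm-5 cells facing them had a median of 3493, with quartiles of 2610 and 3729.5. The mesoderm-2 cell was the higher in 62.6% of these pairs. No cell was at both borders. The medians at the streak and mesoderm-5 borders differed by 2430 ranks within mesoderm-2, and a streak-border cell ranked above a mesoderm-5-border cell in 95.6% of pairs. Only 4 of the 84 streak-border cells lay below the upper quartile of the mesoderm-5-border cells.

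Followed across the class borders, the medians were highest in the first path groups of mesoderm-2, next to the streak. Streak cells were divided into 5 groups of 142 cells by their distance to mesoderm-2. From the farthest to the nearest, their medians were 3487, 3918.5, 4763, 5527.5 and 5932. Beyond the border came the mesoderm-2 medians, with 6042.5 in path group 1, 6080.5 in group 2 and 3347 in group 10, and then mesoderm-5, whose 5 groups of 56 or 57 cells had medians of 3312, 2691, 2646, 2419 and 2102 with distance from mesoderm-2. The share of cells in the highest rank bin was 45.1% in the nearest streak group and 52.5% in the first mesoderm-2 group, and 0 of the 284 mesoderm-5 cells were in that bin (a count that allows up to 1.06%). Mesoderm-5 carried on the relation to the first coordinate (rho = -0.82, 284 cells). In the streak the relation was to the second coordinate and of the opposite sign to that of mesoderm-2 (rho = 0.76, 710 cells). These orders of medians were not tested.

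**Figure D3:**
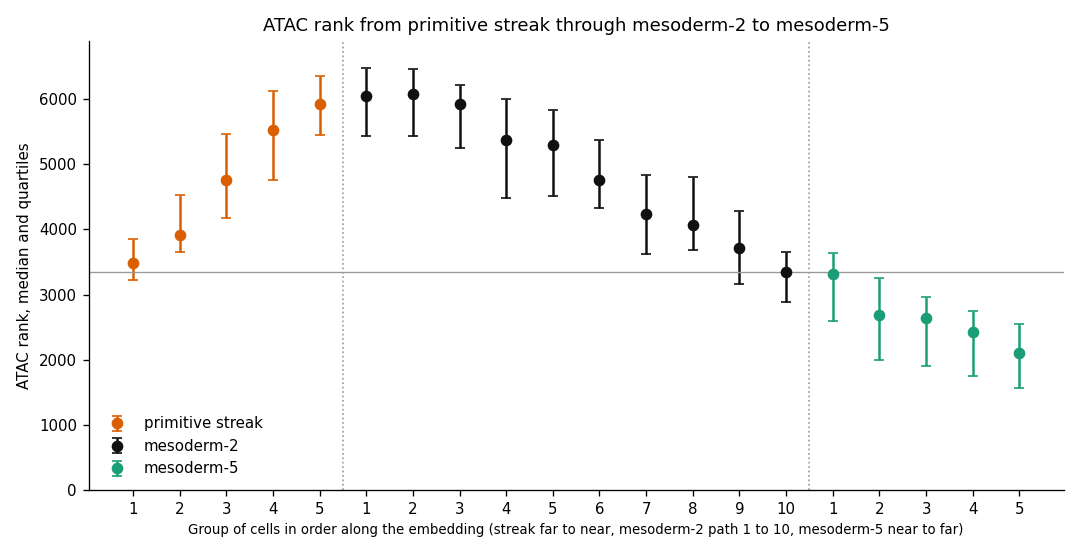
ATAC rank (vertical axis, no unit; points are medians, bars are quartiles) for streak cells grouped by distance to mesoderm-2, mesoderm-2 cells grouped by path position and mesoderm-5 cells grouped by distance from mesoderm-2. The horizontal line marks the middle rank of 3341; medians climb from 3487 to 5932 in the streak, stay near 6042.5 in the first mesoderm-2 groups and descend to 3347, and end at 2102 in mesoderm-5.

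The other mesoderm classes showed less of such a gradient, apart from mesoderm-5. A linear fit on both coordinates accounted for 54.3% of the rank variance in mesoderm-2, 55.7% in the streak and 62.2% in mesoderm-5. It accounted for 26.1% in mesoderm-6, 14.8% in the 114 mesoderm-3 cells among mesoderm, 5.01% in mesoderm-1 and 2.17% in mesoderm-4. These shares were not compared by a test, and a class with a narrow spread of ranks can give a low share. The SD of the rank was 898 in mesoderm-5, 942 in these mesoderm-3 cells and 868 in mesoderm-6, which differed in share. In mesoderm-1 and mesoderm-4, the classes with the lowest shares, the SDs were also the lowest, at 812 and 788. The part of spread in these shares was not tested.

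The sides of mesoderm-2 differed as well. The 72 cells that bordered mesoderm-4 had a median rank of 5953 (quartiles 5446.5 and 6371.5), close to that of the streak border, and their median path position was 0.35. The 89 mesoderm-4 cells opposite them had a median of 5605. At the mesoderm-1 border, 155 cells had a median of 4507 with quartiles of 3753 and 5232, at a median path position of 0.70, and the 148 mesoderm-1 cells opposite had a median of 4599. Beside mesoderm-6, 26 cells had a median of 4722, with quartiles of 4225 and 5551. The 17 mesoderm-6 cells opposite had a median of 5411, with a wide interval of 4715 to 6014. At each of these 3 side borders the quartile ranges on both sides overlapped.

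Mesoderm-3 was the class most mixed with mesoderm-2. Of all nearest cells of mesoderm-2 cells, 7.88% were mesoderm-3, a class that made up 1.75% of all cells. Mesoderm-1 supplied 5.07%, the streak 2.42%, mesoderm-4 1.87% and mesoderm-5 1.58%. Each value was less than the class's share of all cells, which ranged from 3.66 to 10.1%. Mesoderm-2 itself took up 80.0% of the nearest cells, so a value below that share does not show that a class was scarce there. A mesoderm-3 cell was among the 15 nearest of 330 mesoderm-2 cells, or 41.3% (95% interval 37.9 to 44.8%). That share depends on how many nearest cells are counted, and was 24.9% with 5 and 64.0% with 50. In the other direction, 65 of the 136 mesoderm-3 cells (47.8%, 39.2 to 56.5%) had at least 8 of their 15 nearest cells in mesoderm-2. Among mesoderm-2 cells, 243 (30.4%, 27.2 to 33.7%) had all 15 nearest cells in their own class. Own-class cells made up 80.0% of the nearest cells in mesoderm-2 and 29.7% in the 114 mesoderm-3 cells with second coordinates of 0 or more. In the streak, mesoderm-1, mesoderm-4, mesoderm-5 and mesoderm-6 this share was 89.6 to 93.0%.

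The mixing was strongest in the middle of the path. Mesoderm-3 supplied 14.8, 27.5 and 18.6% of the nearest cells in path groups 4, 5 and 6. It supplied 0.42, 1.58 and 5.08% in groups 1 to 3, and 4.58, 3.17, 1.25 and 1.86% in groups 7 to 10. A mesoderm-3 cell was near 88.8% of the mesoderm-2 cells of group 6 and 6.25% of those of group 1. The ranks of mesoderm-2 cells were most scattered in groups 4 and 5. The median absolute difference between a cell and the median of its 15 nearest mesoderm-2 cells was 788.5 ranks in group 4 and 764 in group 5, against 478 in group 1 and 296 in group 10, and 481 over the class. Group 6, with more mesoderm-3 nearby than group 4, had 520.5, close to the 516.5 of group 2. Groups 4, 5 and 6 thus had the most mesoderm-3 nearby and the largest scatter, but not in the same order. A relation between mixing and scatter was not tested.

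The median rank of mesoderm-2 cells near mesoderm-3 was no lower than that of other mesoderm-2 cells. It was 5002.5 (quartiles 4250 and 5771.25) for the 330 cells with a mesoderm-3 cell nearby and 4699 (quartiles 3637 and 5937) for the 469 without. The 132 cells with 1 mesoderm-3 cell among their 15 nearest had a median of 4622, slightly below the cells without. The median was 5287.5 for the 104 cells with 2 or 3 and 5185.5 for the 94 cells with 4 or more. Because the mixing depended on path position, the comparison was repeated inside path groups. In groups 4, 5 and 6, where mixing was strongest, the median of cells near mesoderm-3 minus that of the other cells was -140, 27.5 and 99, with only 19, 14 and 9 cells in the set without mesoderm-3 nearby. The groups with at least 20 cells of each kind were group 3, with a difference of -26, and groups 7, 8 and 10, with 526, 685.5 and 344. In groups 7 to 10 the cells near mesoderm-3 also lay at lower first coordinates, for example a median of -0.47 against -0.02 in group 8, and the part of that position in the difference was not tested.

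Mesoderm-3 cells themselves ranked below the mesoderm-2 cells around them. The rank of a mesoderm-3 cell minus the median rank of its 15 nearest mesoderm-2 cells had a median of -1360 over all 136 cells. However, 22 of these had second coordinates below 0, far from the mesoderm-2 cells they were set against. The other 114 had a second coordinate of 0 or more and lay among mesoderm, a division made after seeing the data. Their median difference was -1072 (quartiles -1752 and -368), and it was below 0 in 96 of 114 cells (84.2%, 76.2 to 90.4%). The median was -1262 among the 65 cells with mostly mesoderm-2 around them, 60 of which were below. Mesoderm-2 cells measured in the same way, each without itself, had a median of -42 (quartiles -503 and 461) and 52.8% below. Cells of the other classes at their borders with mesoderm-2 had medians of -336 in mesoderm-4, -84 in the streak, -20.5 in mesoderm-1, 24 in mesoderm-5 and 154 in mesoderm-6. A low value was not limited to mesoderm-3, since the 4 cells of ectoderm classes that had mostly mesoderm-2 around them had a median of -1233, with 3 of 4 below 0.

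The lower ranks of mesoderm-3 were seen in each stretch of the path. In the first 3 path groups, 9 mesoderm-3 cells had a median of 4281, against 5995.5 for 240 mesoderm-2 cells, and all 9 were below their surroundings. In the middle 4 groups, the median was 4023 for 98 mesoderm-3 cells and 4831 for 320 mesoderm-2 cells, and 80 of the 98 were below their surroundings. The quartiles there were 3582.25 and 4551.25 in mesoderm-3 and 4204.5 and 5548.75 in mesoderm-2. In the last 3 groups, 7 mesoderm-3 cells had a median of 3004, against 3700 for 239 mesoderm-2 cells, and all 7 were below. Across the 114 mesoderm-3 cells among mesoderm, rho of rank with path position was -0.27. Most of them lay in the middle 4 path groups, where rho was -0.16 across 98 mesoderm-3 cells and -0.40 across 320 mesoderm-2 cells. The rank of a mesoderm-3 cell was almost unrelated to the median rank of its nearest mesoderm-2 cells (rho = 0.06), whereas rho was 0.48 for the 330 mesoderm-2 cells near mesoderm-3. The SDs of these nearest medians were 526 and 644. The same rho was 0.69 for mesoderm-5, 0.39 for mesoderm-1, 0.19 for streak and 0.01 for mesoderm-4 cells at the border, so a low value was not limited to mesoderm-3. The SDs of their nearest medians were 594, 487, 253 and 399 in that order. These spreads differed from set to set. None of these comparisons, including that of mesoderm-3 with mesoderm-2, is therefore strictly like for like. The difference between the classes was not tested.

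**Figure D4:**
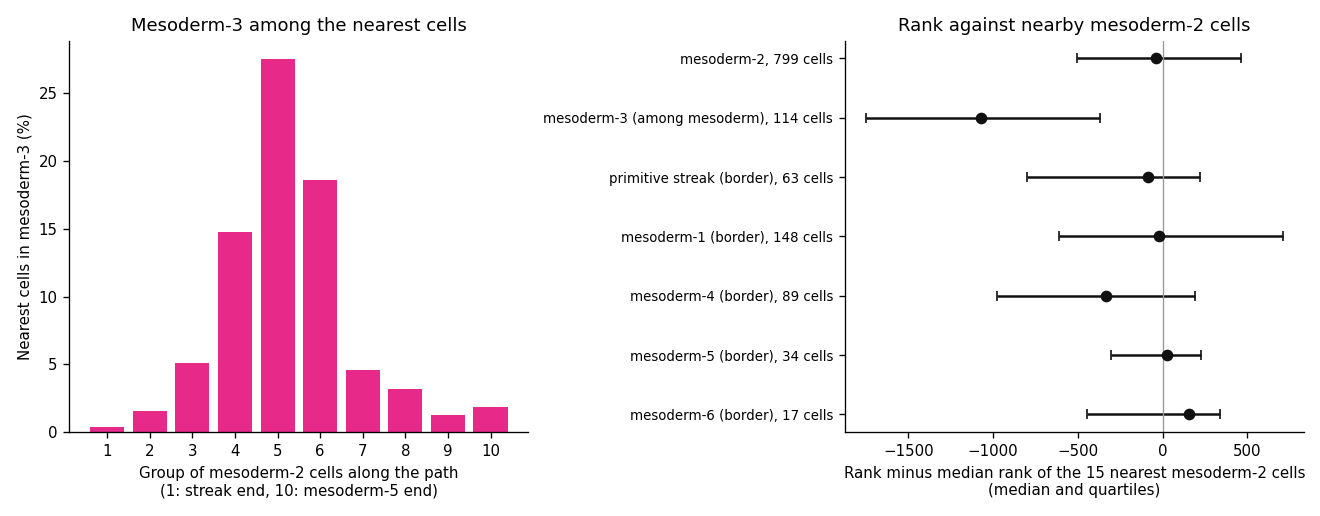
Left, percent of the 15 nearest cells of mesoderm-2 cells that were mesoderm-3, in 10 groups along the path from the streak (1) to mesoderm-5 (10), with the highest bar, 27.5%, in group 5. Right, rank of a cell minus the median rank of its 15 nearest mesoderm-2 cells (points are medians, bars are quartiles) for mesoderm-2, for mesoderm-3 among mesoderm and for bordering cells of the other classes; the mesoderm-3 median is -1072 and its upper quartile, -368, is below 0.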

How the data were processed

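The submitters' processing notes list Signac 1.8.0, Seurat 4.3.0 and Cell Ranger ARC 2.0.0, with the build galGal6; the sources used here give no settings, cell filters, doublet removal or basis of the class names. The authors deposited 1 table with a row per barcode (7750 distinct barcodes); its coordinates and ATAC rank are unitless scores that the authors computed. The 6681 ranks were checked to be whole, distinct and without gaps from 1 upwards, and 1069 cells had none. The class names are the authors' annotation.

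From these values, medians with quartiles, Spearman correlations, linear fits and Euclidean nearest cells were computed. Intervals of shares are exact (Clopper-Pearson) 95% binomial intervals and those of medians rest on binomial order statistics; limits for a count of 0 are 3 counts of the total. No doublet caller was run. Bordering classes were named if they supplied at least 1% of nearest cells; mesoderm-6, under that limit, was added after its values were seen. The class, measures and alternatives were chosen with earlier results of these data known, and the planned marker check needed gene values and was not run. The path groups, the division into 4 groups by one coordinate, the streak and mesoderm-5 groups and the comparisons near mesoderm-3 were added once the table had been read. Alternatives were Pearson and partial correlations, other numbers of nearest cells (5 and 50), other border and path definitions, and leaving out mixed, border or stray cells. The functions were tested on simulated data. Python 3.11.15, pandas 2.3.3, NumPy 2.4.6, SciPy 1.17.1, scikit-learn 1.9.0 and matplotlib 3.10.9 were used.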

Additional observations from a re-analysis of the deposited data

How the results depend on the processing

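Of 46 alternative values, 41 stayed close to those reported, which means within the 95% interval for medians and shares (for the difference between borders, the span of both intervals), within 0.1 for correlations and within 10 percentage points for variance shares; none changed sign. The other 5 were the partial correlations (-0.57 for the first coordinate given the second, -0.23 for the second given the first) and the percent of mesoderm-2 cells with a mesoderm-3 cell nearby (24.9% with 5 nearest cells, 64.0% with 50), which grows by construction with the number counted, and the median difference of mesoderm-3 cells among mesoderm from their 5 nearest mesoderm-2 cells (-1066.5, set against -1360 over all 136 cells). The difference between streak-border and mesoderm-5-border medians ranged from 2233.5 with 50 nearest cells to 2796.5 with at least 3 border cells of 15. Without the cells at those borders, rho with path position was -0.67. The median difference of mesoderm-3 cells from their nearest mesoderm-2 cells was -1360 over all 136 cells and -1396 to -1302 under the other settings over all cells. Without the 22 cells with second coordinates below 0, a choice made after seeing the data, it was -1072 with 15, -1066.5 with 5 and -1091 with 50 nearest cells. All of these were judged against -1360, and only -1066.5 fell outside its interval. Leaving out the 22 cells changed the value more than the number of nearest cells did. Leaving out the 2 mesoderm-2 cells among ectoderm, likewise chosen after seeing the data, moved rho with path position to -0.72. RNA and ATAC were read from the same cells, but the values used here do not give them separately. There are also no sample groups to compare, so no paired analysis was possible. With 1 preparation, no value has a replicate error, and depth per cell was not analysed here.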
